A study of Rattus norvegicus with 30 samples.

Results

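Rat left ventricles that had gone through ischaemic preconditioning (IPC) were compared with left ventricles that had gone through anaesthetic preconditioning (APC). The arrays were chosen by the protocol in their titles, IPC_a to IPC_e against APC_a to APC_e, which makes 10 of the 30 arrays of the series. Each array held total RNA of 1 biological replicate, hybridised to an Affymetrix rat array. The other 4 protocols, with 5 arrays each, were a control (CTL), ischaemia with no preconditioning (ISCH), and the trigger of either kind of preconditioning by itself (IPC_TRI and APC_TRI). IPC and APC are called full protocols here. They are taken to include the test ischaemia after the preconditioning, which the triggers lacked, although the titles do not spell this out. The titles give IPC and APC only as those names, so the anaesthetic, its dose, the length of the ischaemia, and the strain, sex and age of the rats cannot be stated. The labels call the arrays biological replicates and do not say whether any group shared a day of work.

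Preconditioning is the state in which heart muscle survives a long ischaemia better because it met a milder stress shortly before. In ischaemic preconditioning that stress is a brief interruption of the blood supply, and in anaesthetic preconditioning it is exposure to an anaesthetic. Both are known to act through cell surface receptors, protein kinases and the mitochondria of the muscle cell, and the comparison asks whether hearts treated in either way end with different transcripts.

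Values are log2 of the deposited signal plus 16, quantile normalized, and are called log2 signal here, so that a difference of 1 is a doubling. A difference is given as IPC minus APC, with the standard error of the limma fit over all 30 arrays. A probe set, the set of oligonucleotides that reports 1 transcript, was called when its p-value, adjusted over the 5244 probe sets tested by the Benjamini-Hochberg method, was under 0.05. A gene is represented by its brightest probe set, which gave 3155 genes.

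Transcripts of ventricular muscle were bright in both groups. The ventricular myosin light chain Myl2 had a log2 signal of 15.57 ± 0.16 (SD, n = 5) in IPC and 15.54 ± 0.05 (SD, n = 5) in APC, and the cardiac actin Actc1 had 15.42 ± 0.12 (SD, n = 5) and 15.52 ± 0.20 (SD, n = 5). Of the 15 ventricular muscle markers tested, 0 were called between IPC and APC, beside 0 of all 5244 probe sets, and their median difference was -0.09. In whole tissue, fewer cells of a type and less RNA per cell cannot be told apart. The 5 measures of RNA and array quality did not pass a test either. The largest gap was in the ratio of the 3′ to the 5′ signal of beta-actin, a measure of RNA integrity, at 0.34 ± 0.26 (SD, n = 5, log2) in IPC and 0.04 ± 0.27 (SD, n = 5, log2) in APC (2-sided exact permutation test, p = 0.0952, adjusted p = 0.476 over the 5 measures). Array IPC_e stood apart from the other IPC arrays in several results, and the values it moved most are also given without it.

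No gene separated IPC from APC at the threshold. Of 5244 probe sets, limma called 0 (0%), and 137 had an unadjusted p under 0.05, of which 84 were higher and 53 lower in IPC. Without IPC_b 51 were higher and 60 lower. With any other single IPC or APC array left out, more were higher than lower. The differences ran from -1.47 to 1.42 with a median of -0.01, 12 probe sets differed by more than 2-fold and 0 by more than 4-fold. On the level of genes, 46 of 3155 (1.46%) had an unadjusted p under 0.05 and were higher in IPC, and 35 (1.11%) were lower. In 10 genes (0.317%) every IPC array lay above every APC array, and in 19 genes (0.602%) every IPC array lay below every APC array.

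The precision of 5 arrays against 5 sets what these counts can show. The 95% interval of the difference reached a median of 0.51 to either side, and it lay wholly within 2-fold either way for 4407 probe sets (84.0%). That share was 95.7% in the brightest tertile of the probe sets and 68.0% in the dimmest tertile. An interval within 1.5-fold was reached by 1959 probe sets (37.4%), so for the other probe sets this fit did not bound the difference that tightly. Any 2 IPC arrays correlated at 0.935 to 0.973 over the tested probe sets, any 2 APC arrays at 0.943 to 0.971, and an IPC array with an APC array at 0.938 to 0.976.

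**Figure D1:**
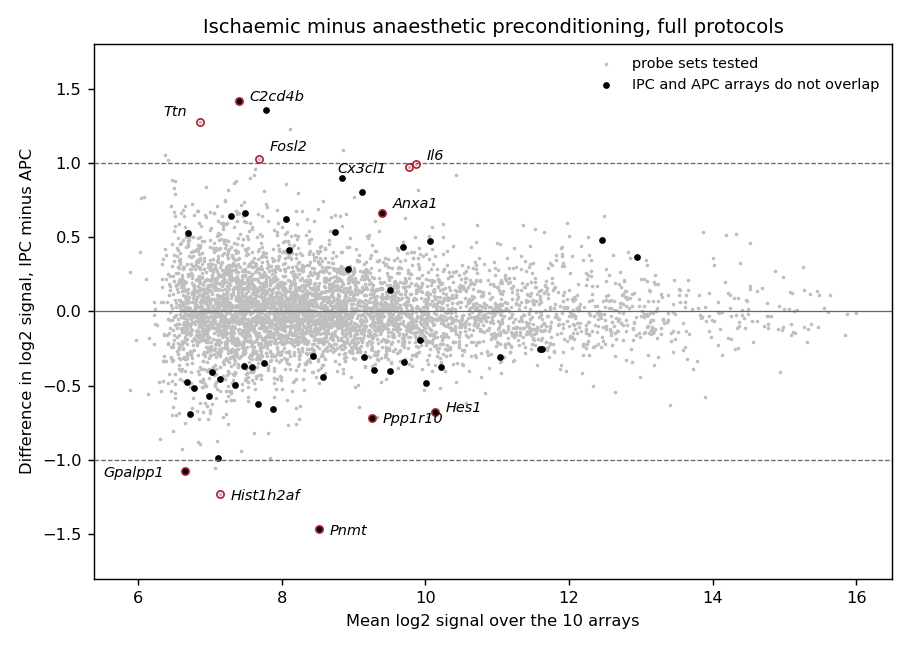
Each point is a probe set, with its mean log2 signal over the 10 IPC and APC arrays on the horizontal axis and the difference IPC minus APC on the vertical axis. Black points are probe sets whose IPC and APC arrays do not overlap, red rings mark named genes and dashed lines mark 2-fold. Pnmt, at -1.47, is the lowest point, and 12 of 5244 probe sets lie outside the dashed lines.

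The transcript that came nearest to the threshold was Pnmt, phenylethanolamine N-methyltransferase, the enzyme that turns noradrenaline into adrenaline. In IPC its log2 signal was 7.80, 7.88, 7.92, 7.26 and 8.05 in arrays a to e. In APC it was 9.02, 9.48, 8.63, 9.30 and 9.81. The groups did not overlap, and the lowest APC array, APC_c, lay above the highest IPC array, IPC_e. The difference was -1.47 ± 0.28 (SE), a 2.77-fold lower signal in IPC with a 95% interval of -2.05 to -0.89 (limma, adjusted p = 0.070). Over 23 alternative settings the difference ran from -1.62 to -1.29 and its adjusted p from 0.0014 to 0.54, and 5 of them called it. No setting called any of the other 44 named genes between IPC and APC.

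The other protocols showed where that gap lay. Pnmt had 9.18 ± 0.35 (SD, n = 5) in CTL and 9.16 ± 0.84 (SD, n = 5) in ISCH, close to the 9.25 ± 0.45 (SD, n = 5) of APC, while IPC had 7.78 ± 0.31 (SD, n = 5). Against CTL, where limma called 204 probe sets (3.89%) for IPC and 192 (3.66%) for APC, the difference of Pnmt was -1.40 ± 0.28 (SE) for IPC (limma, adjusted p = 0.0015), and 0.07 ± 0.28 (SE) for APC (limma, adjusted p = 0.987). Both comparisons share the CTL arrays. The trigger arrays, which share no array with IPC or APC, gave 7.19 ± 0.42 (SD, n = 5) in IPC_TRI and 8.52 ± 0.16 (SD, n = 5) in APC_TRI, again with no overlap. There Pnmt was called at a difference of -1.33 ± 0.28 (SE, limma, adjusted p = 0.0189), among 23 of 5244 probe sets called (0.439%). The difference between full protocols and the difference between triggers were not told apart (-0.13 ± 0.40, SE, 95% interval -0.95 to 0.68). In the triggers 16 of 22 alternatives called Pnmt, with differences of -1.44 to -1.09 and adjusted p-values of 0.0148 to 0.201.

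Markers of nerve tissue, where noradrenaline is made, were not called, as 0 of all 5244 probe sets were. Any part of nerve tissue in the Pnmt difference was not tested. Tyrosine hydroxylase, Th, the enzyme that starts the synthesis of the same family of transmitters, differed by -0.25 ± 0.42 (SE, 95% interval -1.10 to 0.60). That interval did not lie within 2-fold. The 9 tested markers of nerve and Schwann cells had a median difference of -0.01, and their mean log2 signal ran from 7.37 to 7.63 over the IPC arrays and from 7.37 to 7.50 over the APC arrays. None of the 9 had an unadjusted p under 0.05, beside 46 higher and 35 lower of all 3155 genes.

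**Figure D2:**
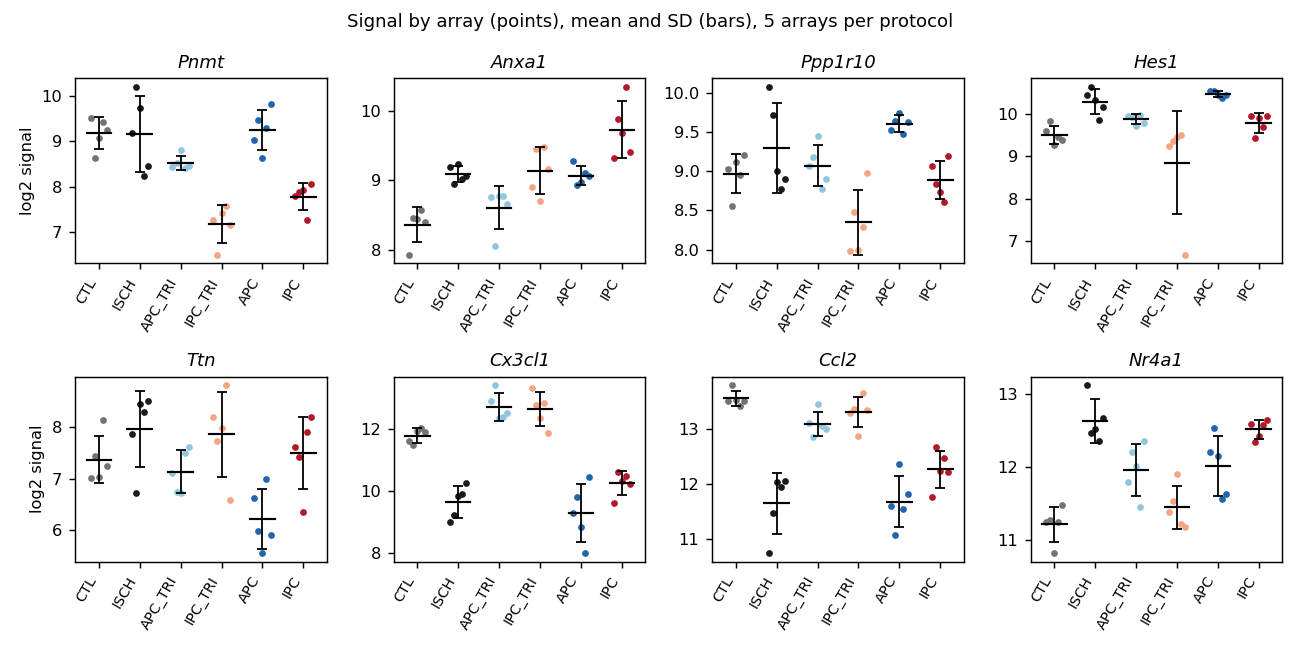
Log2 signal of 8 genes in each of the 30 arrays, by protocol, with the mean and SD of 5 arrays as bars. Pnmt in IPC and IPC_TRI lies below the arrays of every other protocol, Anxa1 in IPC lies above APC, and 1 array of IPC_TRI lies far below the rest in Hes1.

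Among the genes with the smallest p-values that were higher in IPC, Anxa1 stood first. It encodes annexin A1, a lipid-binding protein known to restrain the entry of white blood cells into inflamed tissue. Its log2 signal was 9.32, 9.89, 9.68, 10.35 and 9.42 in arrays IPC_a to IPC_e and 9.28, 8.93, 8.97, 9.10 and 9.06 in arrays APC_a to APC_e. The groups did not overlap, although IPC_a and APC_a lay close together. The difference was 0.66 ± 0.19 (SE), or 1.58-fold, with a 95% interval of 0.28 to 1.04 (limma, adjusted p = 0.9996). A second probe set of Anxa1 differed by 0.90 ± 0.28 (SE), also with no overlap. Against CTL, Anxa1 rose in both, by 1.37 in IPC (limma, adjusted p = 6.0e-06) and by 0.71 in APC (limma, adjusted p = 0.0211), and it rose by 0.73 in ISCH (limma, adjusted p = 0.0111). In the triggers it was 0.53 ± 0.19 (SE) higher in IPC_TRI (limma, adjusted p = 0.161), with groups that overlapped.

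Ppp1r10 and Hes1 were lower in IPC. Ppp1r10 encodes a nuclear subunit that holds protein phosphatase 1, and its log2 signal was 9.07, 8.84, 8.74, 8.61 and 9.20 in IPC_a to IPC_e against 9.53, 9.65, 9.75, 9.47 and 9.63 in APC_a to APC_e. The groups did not overlap, and the difference was -0.72 ± 0.22 (SE, 95% interval -1.16 to -0.28, limma, adjusted p = 0.9996). The triggers differed by -0.73 ± 0.22 (SE, limma, adjusted p = 0.104). Hes1 encodes a transcriptional repressor switched on by Notch receptors. It had 9.96, 9.42, 9.91, 9.69 and 9.96 in IPC_a to IPC_e and 10.53, 10.53, 10.45, 10.38 and 10.45 in APC_a to APC_e, a difference of -0.68 ± 0.31 (SE, 95% interval -1.31 to -0.04, limma, adjusted p = 0.9996). The APC arrays lay within a narrow band above all of IPC, and a second probe set differed by -0.71 ± 0.23 (SE) with overlap. The trigger difference of Hes1 was -1.02 ± 0.31 (SE), and -0.48 without IPC_TRI_e, which lay far below the other trigger arrays. The SE of both differences rests on the spread within every protocol. The SD of Hes1 was 0.23 in IPC, 0.06 in APC and 1.22 in IPC_TRI. Over 23 alternative settings its difference IPC minus APC ran from -0.90 to -0.59. The unadjusted p of that difference (limma) ran from 2.7e-05 to 0.088. Its lowest adjusted p was 0.071, and 0 settings called it.

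A further 9 genes that were higher in IPC were named for a small p-value or because the groups did not overlap. Ttn, which encodes the giant sarcomeric spring protein titin, had 7.61, 7.41, 6.36, 7.90 and 8.19 in IPC_a to IPC_e and 6.62, 5.99, 5.56, 6.99 and 5.92 in APC_a to APC_e. IPC_c lay among the APC arrays, and the difference was 1.28 ± 0.38 (SE, 95% interval 0.50 to 2.05). This probe set was dim, as the mean over the ventricular muscle markers was 13.71 to 13.75 in IPC and 13.59 to 13.81 in APC. C2cd4b had the largest positive difference, 1.42 ± 0.47 (SE, 95% interval 0.45 to 2.38), with no overlap between IPC at 7.79 to 8.92 and APC at 6.17 to 7.74. Mitochondrial malate dehydrogenase, Mdh2, differed by 0.36 ± 0.13 (SE), and its second probe set by 0.11 ± 0.13 (SE). Idi1, an enzyme of cholesterol synthesis, differed by 0.66 ± 0.26 (SE), and Slc28a2, which carries nucleosides into cells, by 0.80 ± 0.31 (SE), both with no overlap. Bmpr1a, a receptor for bone morphogenetic proteins, also showed no overlap at 0.64 ± 0.30 (SE). The transcription factor Nfib differed by 0.36 ± 0.12 (SE), the lipid phosphatase Plpp3 by 0.43 ± 0.16 (SE) and Slfn2 by 0.47 ± 0.17 (SE). The other probe sets of Nfib differed by 0.20 ± 0.19 (SE) and 0.12 ± 0.19 (SE), and that of Plpp3 by 0.69 ± 0.43 (SE). Each of these 9 genes had an adjusted p of 0.9996 (limma).

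The further 9 genes that were lower in IPC were named by the same rule. Glp1r, the receptor for glucagon-like peptide 1, differed by -0.63 ± 0.21 (SE, 95% interval -1.05 to -0.20), with IPC at 6.95 to 7.61 and APC at 7.75 to 8.21. Gpalpp1 differed by -1.07 ± 0.36 (SE), with IPC at 5.24 to 6.80 and APC at 7.08 to 7.40. Neither gene overlapped between the groups. Scnn1g, a subunit of the epithelial sodium channel, differed by -0.98 ± 0.44 (SE) with no overlap, and by -0.65 without IPC_e. Vegfb, a growth factor of the VEGF family, differed by -0.34 ± 0.13 (SE), Kl, the hormone co-receptor klotho, by -0.80 ± 0.30 (SE), and the glutathione transferase Gstm7 by -0.53 ± 0.19 (SE). Nxph4 differed by -0.82 ± 0.29 (SE), the histone Hist1h2af, a member of a multigene family with near-identical copies, by -1.23 ± 0.45 (SE), and Plpp2 by -0.89 ± 0.34 (SE). A second probe set of Plpp2 had the opposite sign, 0.18 ± 0.32 (SE). All 9 had an adjusted p of 0.9996 (limma).

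Gene lists for 21 processes and 12 cell types were described by how many of their genes lay above or below 0, beside 1453 of all 3155 genes above 0 and a median of -0.02 over all genes. Of the genes on these lists 0 were called, beside 0 of all 5244 probe sets. The list with the highest median was that of interferon-induced genes, which encode antiviral proteins and the machinery of antigen presentation. Of its 24 tested genes 20 lay above 0 and 4 below, the median was 0.16, and 3 had an unadjusted p under 0.05, all higher in IPC. Without IPC_e the median was 0.13, 19 lay above 0, and 0 had an unadjusted p under 0.05.

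Irf7, the transcription factor that amplifies the interferon response, had 9.43, 8.87, 9.97, 8.79 and 9.91 in IPC_a to IPC_e and 8.70, 8.24, 8.29, 8.69 and 9.21 in APC_a to APC_e. The highest APC array lay above 2 IPC arrays, and the difference was 0.77 ± 0.35 (SE, 95% interval 0.05 to 1.49, limma, adjusted p = 0.9996). A second probe set of Irf7 differed by 0.43 ± 0.28 (SE). Eif2ak2, the kinase that stops protein synthesis when it binds viral RNA, had 8.08, 8.05, 8.20, 7.82 and 7.83 in IPC_a to IPC_e and 7.34 ± 0.32 (SD, n = 5) in APC, where APC_e reached the lowest IPC arrays. This was a difference of 0.65 ± 0.32 (SE, 95% interval 0.00 to 1.30). B2m, the light chain of class I antigen-presenting molecules, had 12.99, 12.94, 12.95, 13.08 and 13.65 in IPC_a to IPC_e and 12.91, 12.89, 12.77, 12.48 and 12.73 in APC_a to APC_e. No APC array reached the lowest IPC array. Its difference was 0.36 ± 0.15 (SE, 95% interval 0.05 to 0.68) and 0.23 without IPC_e, the highest array.

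The median of these genes lay far below CTL in both preconditioned groups, and also in ISCH, which had no preconditioning. Against CTL the median of the list was -1.35 for IPC, -1.40 for APC and -1.19 for ISCH, comparisons that share the CTL arrays. Some members lay near CTL, such as the class II gene RT1-Ba at -0.04 in IPC and -0.09 in APC. The change of Irf7 was -2.13 in IPC (limma, adjusted p = 9.3e-05) and -2.90 in APC (limma, adjusted p = 6.6e-07). That of Eif2ak2 was -1.56 in IPC (limma, adjusted p = 0.00164) and -2.21 in APC (limma, adjusted p = 1.0e-05). In ISCH against CTL, Irf7 changed by -2.33 (limma, adjusted p = 2.1e-05) and Eif2ak2 by -2.34 (limma, adjusted p = 3.9e-06). In the triggers the list's median was -0.14, on the other side of 0.

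Interferon acts on some of these genes through a DNA element in their promoters, and the 3 members with the smallest p-values carry its core letters. The element was searched as GAAANNGAAA on either strand, which reads TTTCNNTTTC on the opposite strand, in RefSeq windows from 250 bases before to 50 after the start of each gene (build GRCr8). It was found in 11 of the 22 list genes that have a window (50%) and in 1312 of all 33469 windows of 300 bases (3.92%). The stretches below are shown 5′ to 3′ on the strand of the gene, with the match in capitals, at chr3:129549160-129549209 (plus strand) for B2m, chr6:21941118-21941167 (plus strand) for Eif2ak2 and chr1:205800063-205800112 (minus strand) for Irf7. A match describes letters and is not evidence of binding. The 11 genes with a match had differences IPC minus APC from -0.27 (Psme2) to 0.77 (Irf7). Mx1, at 0.37, and Irf1, at 0.38, are not among these 11. Any link between the element and the difference was not tested.
B2m: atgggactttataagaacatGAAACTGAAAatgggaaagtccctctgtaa
Eif2ak2: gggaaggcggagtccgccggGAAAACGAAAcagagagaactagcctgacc
Irf7: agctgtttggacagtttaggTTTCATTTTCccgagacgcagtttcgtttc
The match begins 150 bases before the start of the gene in B2m, 16 in Eif2ak2 and 69 in Irf7. Eif2ak2 and Irf7 thus carry it close to the start, on opposite orientations.

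Cytokines, chemokines and adhesion molecules had 21 of 36 tested genes above 0 and a median of 0.08, with 3 at an unadjusted p under 0.05, all higher in IPC, and 6 without IPC_e, of which 5 were higher. Cx3cl1, the membrane-bound chemokine fractalkine, had 9.62, 10.63, 10.34, 10.49 and 10.25 in IPC_a to IPC_e and 9.30, 9.83, 8.86, 8.01 and 10.47 in APC_a to APC_e. APC_e lay within IPC and APC_d far below it, and the difference was 0.97 ± 0.32 (SE, 95% interval 0.31 to 1.63, limma, adjusted p = 0.9996). Its other probe sets differed by 0.03 ± 0.17 (SE) and 0.43 ± 0.31 (SE). Ccl2, the chemokine that draws monocytes, differed by 0.59 ± 0.22 (SE, 95% interval 0.15 to 1.04), with IPC at 11.76 to 12.67 and APC at 11.07 to 12.37, and its second probe set by 0.56 ± 0.23 (SE). Ccl2 fell in both groups against CTL, with changes of -1.29 in IPC (limma, adjusted p = 1.3e-04) and -1.88 in APC (limma, adjusted p = 2.7e-07). The cytokine Il6 differed by 0.99 ± 0.43 (SE, 95% interval 0.11 to 1.87) and by 1.32 without IPC_e, and its second probe set by 0.48 ± 0.42 (SE). Tnf, at -0.38 ± 0.33 (SE), and Il1b, at 0.19 ± 0.23 (SE), lay on either side of 0.

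Immediate early genes, which are switched on within minutes of stress, had a median of 0.00 over 29 genes, 15 above 0 and 14 below, with 3 at an unadjusted p under 0.05, all higher in IPC. Without IPC_e, whose mean over the list was as low as the lowest APC array, 20 lay above 0, the median was 0.10, and 5 had an unadjusted p under 0.05, all higher in IPC. Nr4a1, an orphan nuclear receptor, had 12.59, 12.34, 12.43, 12.57 and 12.65 in IPC_a to IPC_e and 12.20, 12.54, 12.15, 11.56 and 11.63 in APC_a to APC_e. Only APC_b reached into the range of IPC, and the difference was 0.50 ± 0.19 (SE, 95% interval 0.12 to 0.88, limma, adjusted p = 0.9996), with 0.53 ± 0.19 (SE) for a second probe set. In the triggers Nr4a1 differed by -0.52 ± 0.19 (SE, limma, adjusted p = 0.177). The difference between full protocols and that between triggers were 1.01 ± 0.26 (SE) apart (limma, adjusted p = 0.202). Fosl2, a partner in the AP-1 transcription factor, differed by 1.03 ± 0.43 (SE, 95% interval 0.15 to 1.91) and Btg1, which slows cell division, by 0.27 ± 0.13 (SE, 95% interval 0.01 to 0.54). A second probe set differed by 0.30 ± 0.37 (SE) for Fosl2 and by 0.16 ± 0.22 (SE) for Btg1. Fos, at -0.12 ± 0.19 (SE), and Jun, at -0.13 ± 0.22 (SE), had 95% intervals that included 0.

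Genes of the sarcomere, the contractile unit of muscle, leaned the other way. Of 25 tested, 18 lay below 0, with a median of -0.11, and -0.11 without IPC_e. Myh7, the slow beta myosin heavy chain, had 14.83, 14.90, 15.15, 14.06 and 14.77 in IPC_a to IPC_e and 15.01, 14.92, 15.48, 15.34 and 14.99 in APC_a to APC_e. The groups overlapped, and the difference was -0.41 ± 0.17 (SE, 95% interval -0.75 to -0.06). Ankrd1, a stretch-responsive protein of the sarcomere, differed by -0.23 ± 0.10 (SE, 95% interval -0.42 to -0.03), while Ttn, described above, was the only member of the list with a small p that was higher in IPC. The adult alpha myosin Myh6 differed by -0.16 ± 0.11 (SE) and the hypertrophy marker Nppb by 0.02 ± 0.16 (SE). The list sums over the ventricular markers ran from 341215 to 377341 signal units in IPC and from 354582 to 418331 in APC.

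Markers of fibroblasts and extracellular matrix were highest in a single array. Of 26 tested, 19 lay above 0, with a median of 0.13, and without IPC_e 12 of 26 lay above 0 with a median of -0.04. The mean log2 signal of the list was 10.51 in IPC_e, against 9.66 to 9.85 in the other 4 IPC arrays and 9.50 to 9.97 in APC. The summed signal of the list ran from 66683 to 114631 in IPC and from 49128 to 74635 in APC. Lum, a matrix proteoglycan, differed by 0.61 ± 0.25 (SE) and by 0.43 without IPC_e. Sparc, a collagen-binding protein, differed by 0.46 ± 0.22 (SE), and its 3 other probe sets by -0.17, -0.24 and 0.22.

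The smooth muscle actin Acta2 was highest in the same array. It had 9.63, 9.66, 10.22, 10.27 and 11.75 in IPC_a to IPC_e and 8.86, 9.96, 9.96, 8.71 and 9.94 in APC_a to APC_e. The difference was 0.82 ± 0.34 (SE, 95% interval 0.12 to 1.51) and 0.46 without IPC_e. The smooth muscle myosin Myh11 differed by 0.90 ± 0.47 (SE, 95% interval -0.06 to 1.85) and Tagln by 0.59 ± 0.35 (SE, 95% interval -0.12 to 1.29), against 0.80 and 0.23 without IPC_e, but 5 of the 10 tested markers of smooth muscle and pericytes lay above 0 and the median was -0.03. The part of the tissue's make-up in these differences was not tested.

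**Figure D3:**
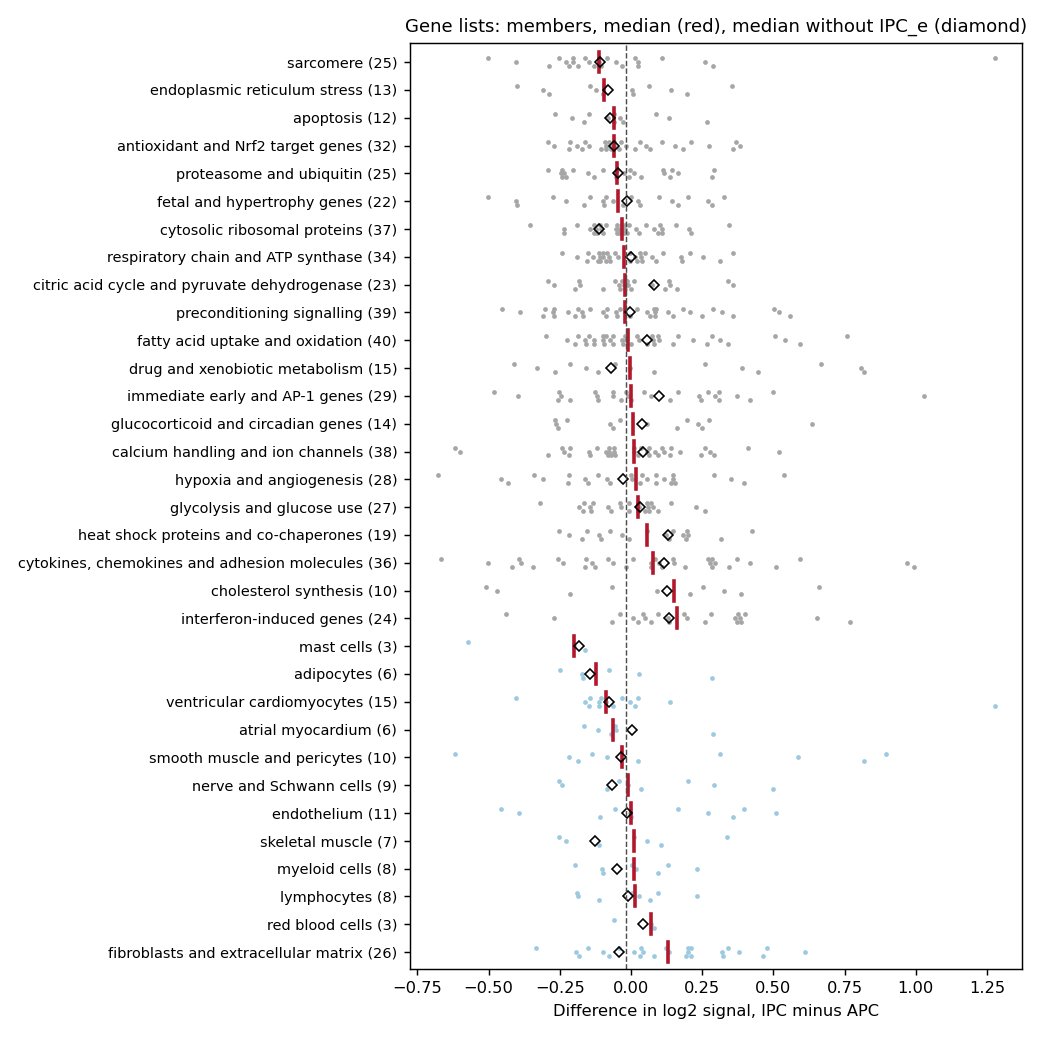
Each small point is the difference IPC minus APC of 1 tested gene on a list, with the number of genes in brackets, grey for processes and blue for cell types. The red bar is the median of the list, the diamond its median without IPC_e, and the dashed line the median of all genes, -0.02. Interferon-induced genes have the highest median, 0.16, and for fibroblasts the diamond lies on the other side of 0.

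The pathway to which preconditioning is usually traced held no called gene, and 0 of all 5244 probe sets were called. Over all 3155 genes, 46 were higher and 35 lower in IPC at an unadjusted p under 0.05. Of 39 tested genes of receptors, kinases and channels known from preconditioning, 18 lay above 0, the median was -0.02, and 1 had an unadjusted p under 0.05. That gene was Hbegf, a growth factor released from the cell surface to activate the EGF receptor, with 8.99 to 9.48 in IPC, 9.26 to 10.01 in APC and a difference of -0.45 ± 0.19 (SE, 95% interval -0.84 to -0.07). Hbegf rose against CTL in both, by 0.65 in IPC (limma, adjusted p = 0.0432) and by 1.11 in APC (limma, adjusted p = 1.4e-04). The adenosine receptor Adora1 differed by -0.39 ± 0.43 (SE), protein kinase C epsilon, Prkce, by 0.13 ± 0.17 (SE) with a 95% interval within 2-fold, and the kinase Akt1 by -0.05 ± 0.13 (SE).

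Among 28 genes of hypoxia and angiogenesis 15 lay above 0, with a median of 0.02, and -0.03 without IPC_e. Nrp1, a co-receptor for VEGF, differed by 0.54 ± 0.20 (SE, 95% interval 0.12 to 0.96), with IPC at 9.25 to 10.15 and APC at 8.76 to 9.44, while Vegfb and Hes1, given above, lay below 0. The hypoxia-inducible factor Hif1a differed by 0.06 ± 0.22 (SE) and Vegfa by 0.14 ± 0.21 (SE).

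Stress and energy genes lay close to 0 as lists. Heat shock proteins and co-chaperones had a median of 0.05 over 19 genes and antioxidant genes one of -0.06 over 32, and neither held a gene with an unadjusted p under 0.05. Without IPC_e the heat shock median was 0.13. Genes of fatty acid use (median -0.01, and 0.06 without IPC_e, 40 genes) and glycolysis (0.02, 27 genes) held none either. The respiratory chain (-0.03, 34 genes) held Atp5pf, a coupling factor of ATP synthase, at 0.36 ± 0.17 (SE). The citric acid cycle (-0.02, 23 genes) held Suclg1, a subunit of succinyl-CoA ligase, at -0.29 ± 0.13 (SE), opposite in sign to Mdh2. A second probe set of Suclg1 lay at -0.03 ± 0.14 (SE). Of the 23 genes of this cycle 8 lay above 0, and without IPC_e, whose list mean was 11.19 against 11.50 to 11.78 in the other IPC arrays, 18 lay above 0 and the median was 0.08. The proteasome list (-0.05, 25 genes) held Psmd4, its ubiquitin receptor, at -0.29 ± 0.13 (SE), and all 3 of its probe sets lay below 0. The list of drug-metabolising genes held Ces1d, a carboxylesterase, at 0.81 ± 0.38 (SE), and Cyp4a1, a fatty acid hydroxylase, at 0.67 ± 0.31 (SE), whose other probe set lay at -0.02. Ribosomal protein genes had a median of -0.03 over 37 genes, and -0.11 without IPC_e.

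The genes that ischaemia itself moved were examined next, since ISCH and CTL share no array with IPC or APC. Between ISCH and CTL limma called 460 of 5244 probe sets (8.77%), of which 207 rose and 253 fell. Over the 207 that rose the median of IPC minus APC was 0.07, 119 (57.5%) lay above 0, and the 95% interval lay within 2-fold for 175 (84.5%). Over the 253 that fell the median was 0.01, 132 (52.2%) lay above 0, and the interval lay within 2-fold for 210 (83.0%). An unadjusted p under 0.05 was found for 13 of the 207 (6.28%), of which 10 were higher in IPC, and for 20 of the 253 (7.91%), of which 17 were higher in IPC, beside 137 of all 5244 (2.61%), of which 84 were higher. Without IPC_e these counts were 10 of 206 that rose, 5 of them higher in IPC, and 24 of 253 that fell, 22 of them higher. The medians were then 0.00 over those that rose and 0.11 over those that fell. Both contrasts used the same estimate of the spread for each probe set, so a small spread lowers both p-values. The part of that in these shares was not tested. Against CTL the rising probe sets had medians of 0.57 in IPC and 0.51 in APC, and the falling ones -0.57 and -0.53.

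Of the 262 genes called between ISCH and CTL by their brightest probe set, the 6 with the largest rise and the 6 with the largest fall are given here. Probe sets with no gene symbol and the dimmer probe sets of a gene did not enter this order, and 2 probe sets with no symbol rose by more, up to 3.41. G0s2, an inhibitor of fat breakdown, rose by 2.90 in ISCH against CTL (limma, adjusted p = 1.5e-04), and IPC minus APC was 0.59 ± 0.50 (SE, 95% interval -0.42 to 1.61). Jun rose by 2.64 in ISCH (limma, adjusted p = 3.9e-10), and IPC and APC had 13.08 and 13.20. The heat shock protein Hsph1 rose by 2.55 in ISCH (limma, adjusted p = 1.5e-11), and IPC minus APC was -0.22 ± 0.18 (SE). Hspa1a, Cyp4b1 and Fabp4 rose by 1.97 to 2.07 in ISCH, and IPC minus APC was -0.01 ± 0.32 (SE), -0.00 ± 0.44 (SE) and -0.17 ± 0.34 (SE).

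The 6 genes with the largest falls in this order were immune genes. The antiviral gene Mx2 changed by -4.98 in ISCH (limma, adjusted p = 4.3e-08), the chemokine Cxcl10 by -4.87 (limma, adjusted p = 1.7e-12) and the antiviral enzyme Rsad2 by -4.21 (limma, adjusted p = 1.5e-11). Their differences IPC minus APC were 0.38 ± 0.51 (SE), 0.15 ± 0.31 (SE) and 0.10 ± 0.30 (SE). For Gbp2, Mx1 and the receptor Cd40 they were 0.38 ± 0.26 (SE), 0.37 ± 0.35 (SE) and -0.16 ± 0.39 (SE). In all 12 genes the 95% interval included 0.

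Each array was then placed on the line from the mean of the CTL arrays, set to 0, to the mean of the ISCH arrays, set to 1, over all tested probe sets. IPC arrays lay at 0.595, 0.522, 0.555, 0.555 and 0.891 (IPC_a to IPC_e), a mean of 0.624 ± 0.152 (SD, n = 5). APC arrays lay at 0.712, 0.631, 0.686, 0.585 and 0.562 (APC_a to APC_e), a mean of 0.635 ± 0.064 (SD, n = 5). The groups overlapped, and the means differed by -0.01 (2-sided exact permutation test, p = 0.921; the smallest p this design allows is 0.00794). Without IPC_e, the array nearest to ISCH, the difference was -0.08 (2-sided exact permutation test, p = 0.0873).

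**Figure D4:**
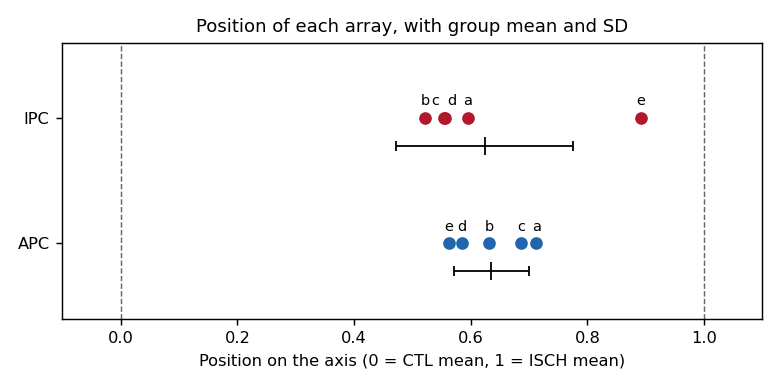
Position of each IPC and APC array on the line from the mean CTL array (0) to the mean ISCH array (1), both dashed, with letters for the arrays and bars for group mean and SD. The 5 APC arrays lie at 0.562 to 0.712, 4 IPC arrays at 0.522 to 0.595 and IPC_e at 0.891.

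The same contrast was drawn in the trigger arrays, over all genes. Between IPC_TRI and APC_TRI limma called 23 probe sets (0.439%), 9 higher and 14 lower in IPC_TRI, and on the level of genes 457 of 3155 (14.5%) had an unadjusted p under 0.05. The median absolute difference was 0.23 in the triggers and 0.14 in the full protocols. Over all probe sets the 2 differences, which share no array, correlated at r = -0.02, a description over genes that are not independent. Of the 137 probe sets with an unadjusted p under 0.05 in the full protocols, 71 (51.8%) had the same sign in the triggers, beside 49.1% of all probe sets. Of the 23 called in the triggers, 2 had an unadjusted p under 0.05 in the full protocols, and their median absolute difference was 1.32 in the triggers and 0.18 in the full protocols.

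The test of whether the difference itself changed between triggers and full protocols called 5 probe sets (0.0953%). Scd2 and Uck2 were called by their brightest probe set. Scd2, a desaturase that makes unsaturated fatty acids, was 7.51 to 8.06 in IPC and 7.31 to 7.88 in APC, which overlapped, and 5.59 to 8.18 in IPC_TRI and 8.34 to 9.03 in APC_TRI, which did not. The difference was 0.02 ± 0.28 (SE) in the full protocols and -1.89 ± 0.28 (SE) in the triggers, and these differed by 1.91 ± 0.40 (SE, limma, adjusted p = 0.0476). The trigger differences of its other probe sets, 0.12 and -0.29, were far smaller. Uck2, a kinase that salvages uridine and cytidine, was higher in IPC_TRI by 1.26 ± 0.25 (SE) and at -0.43 ± 0.25 (SE) in the full protocols, or -0.19 without IPC_e, a change of -1.69 ± 0.36 (SE, limma, adjusted p = 0.0476). Without IPC_e neither was called (limma, adjusted p = 0.103 for both). Under the alternatives 8 of 32 settings kept the call for Scd2 and 7 of 32 for Uck2.

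A dimmer probe set of Cyp3a23-3a1, a drug-metabolising cytochrome, gave the largest change, 2.66 ± 0.44 (SE, limma, adjusted p = 0.00705), from -2.32 ± 0.31 (SE) in the triggers to 0.33 ± 0.31 (SE) in the full protocols. Its IPC_TRI arrays read 4.78, 4.88, 6.03, 4.52 and 4.63, low signals on which the pseudocount of 16 weighs. A dimmer probe set of Pdp2, a phosphatase that activates pyruvate dehydrogenase, changed by 2.43 ± 0.48 (SE, limma, adjusted p = 0.0476), from -2.03 ± 0.34 (SE) to 0.40 ± 0.34 (SE). Its IPC_TRI arrays were also low, at 4.88 to 6.55, and no brighter probe set of either gene was called. The fifth probe set matches several genes and changed by -2.14 ± 0.44 (SE, limma, adjusted p = 0.0476). In all 5 the difference was larger in size in the triggers than in the full protocols.

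**Figure D5:**
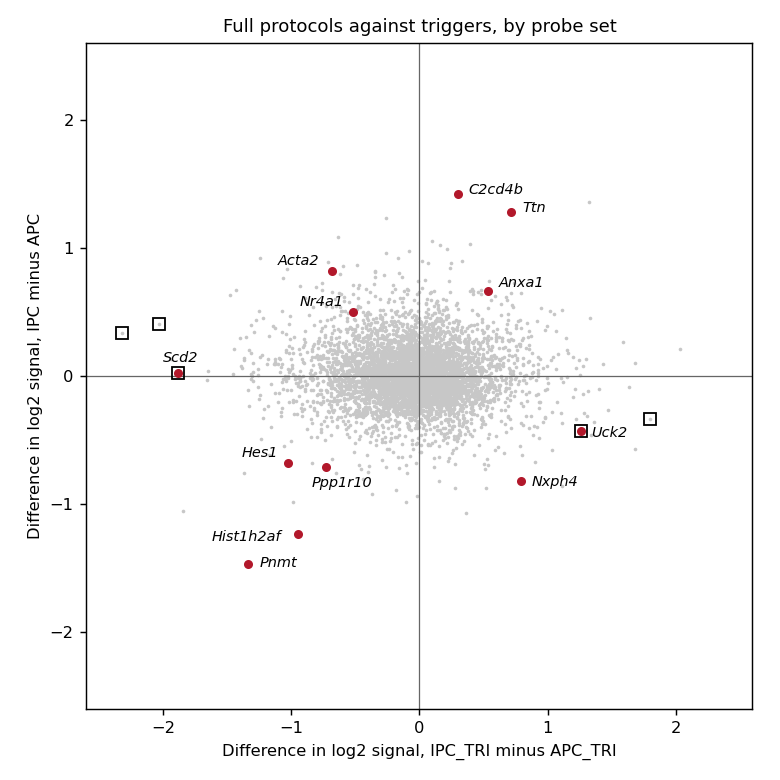
Each grey point is a tested probe set, with the difference IPC_TRI minus APC_TRI on the horizontal axis and IPC minus APC on the vertical axis, both in log2 signal. Squares mark the 5 probe sets whose differences differ from each other by the test, and red points are named genes. Pnmt lies below 0 on both axes, at -1.33 and -1.47, and the squares lie far from 0 on the horizontal axis and near 0 on the vertical.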

How the data were processed

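The files hold intensity values as deposited by the authors, linear, with a single value for a probe set on an array. The 2% trimmed mean of an array was 500.8 to 501 and the median 114.7 to 189.3, so the values came scaled to a common mean and not quantile normalized. The software behind them is not named by the labels. Of 8799 probe sets, 59 controls served only as quality measures, and 7006 carried 1 gene symbol, 308 several and 1426 none here. A pseudocount of 16 was added before the log2, arrays were quantile normalized, and the dimmest 40% of probe sets by mean were dropped. limma 3.58.1 in R 4.3.3 fitted a mean per protocol over all 30 arrays, with variances following a trend with signal and Benjamini-Hochberg adjustment for each contrast. The code was tested on simulated data.

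Named are the 10 genes with the smallest p in each direction, called genes, up to 3 genes per list with an unadjusted p under 0.05, genes called between triggers and full protocols, and the 5 per direction with the largest difference and no overlap. Genes outside that rule (Th, the 12 ischaemia genes and examples from the lists) were chosen after their values were seen. The comparison and the lists were chosen with earlier results of these data known. Arrays carry no read depth, and their number limits the precision. Alternatives covered pseudocounts of 1 and 64, no filter or 60% left out, values as deposited, median centring, covariates, array weights, a replicate block, only the groups of the contrast, the mean over a gene's probe sets and leaving out arrays. Numbers shared by IPC and APC arrays did not pair them, with correlations of -0.10 to 0.05.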

Additional observations from a re-analysis of the deposited data

Results flagged for a closer look

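Of 168 sets of 5 arrays examined for an array far from the other 4, 13 (7.74%) held one, where chance gives about 1 in 20. Array IPC_e accounted for 5 of them. It was the highest IPC array in position between CTL and ISCH (0.891, with the next at 0.595), in the mean log2 signal of fibroblast and matrix markers (10.51, next 9.85) and in B2m (13.65, next 13.08), and the lowest in Scnn1g (5.27, next 6.69) and Uck2 (6.79, next 7.84). IPC_c was highest in C2cd4b (8.92, next 7.99) and lowest in the 3′ to 5′ ratio of beta-actin (-0.118 on the log2 scale, next 0.425). IPC_d was highest in Atp5pf (13.40), and APC_c lowest in the same gene (12.19) and in Scd2 (7.31). APC_e was highest in the mean of interferon-induced genes (9.22, next 8.86), APC_d lowest in the mean of fetal and hypertrophy genes (9.41, next 9.52), and APC_a highest in median deposited signal (148.5, next 124.4).

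The difference between ischaemic and anaesthetic preconditioning differed between full protocols and triggers in 5 probe sets by limma's test of that contrast. The changes were 2.66 in Cyp3a23-3a1 and 2.43 in Pdp2, both in dimmer probe sets with a low signal in IPC_TRI. They were 1.91 in Scd2, -1.69 in Uck2 and -2.14 in a probe set that matches both Hspa1a and Hspa1b.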

How the results depend on the processing

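IPC against APC gave 0 calls in the reported fit and 1, Pnmt, with 60% of probe sets left out, with values as deposited and with array weights. Leaving out 1 array gave 0 to 1. The count with an unadjusted p under 0.05, 137, was 207 with no filter, 272 with only the groups of the contrast and 325 with array weights. For the triggers the 23 calls became 15 with 60% left out, 41 with median centring (5 higher, 36 lower), 0 with only the groups of the contrast, 13 with array weights, 41 with the beta-actin ratio as a covariate, 93 without ISCH_a and IPC_TRI_e, and 8 to 89 without single arrays. The 5 calls between full protocols and triggers became 2 with a pseudocount of 1, 1 with no filter, 1 with values as deposited, 3 with median centring, 0 with only the groups of the contrast, 8 with array weights, 0 with the beta-actin covariate, 11 without ISCH_a and IPC_TRI_e, and 1 to 10 without single arrays. With the replicate block, 0 probe sets were called between IPC and APC and 1 between full protocols and triggers. The cause of these shifts was not tested. The difference in position between CTL and ISCH turned to 0.0063 without ISCH_a and IPC_TRI_e, and ran from -0.080 to 0.014 without single arrays. Of 45 named genes 44 kept their sign in every setting. Scd2, at 0.02, ran from -0.085 to 0.083 without single arrays and reached 0.144 in another setting. Of 33 list medians 9 kept their sign in every setting, interferon-induced genes and the sarcomere among them, and 7 moved by over 1 SD in some setting.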

Other observations

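Lists not described above held few genes with an unadjusted p under 0.05 between IPC and APC, and 0 called. Of 10 tested genes of cholesterol synthesis 6 lay above 0, with a median of 0.15 and a range of -0.51 (Fdft1, which makes squalene) to 0.66 (Idi1). The sterol regulator Srebf1 differed by 0.39 ± 0.37 (SE). Of 14 glucocorticoid and circadian genes 7 lay above 0 with a median of 0.01, and the transcription factor Cebpd differed most, by 0.64 ± 0.36 (SE). Calcium handling and ion channels had a median of 0.01 over 38 genes.

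Markers of blood-borne and vessel cells lay near 0. The median was 0.01 over 8 myeloid markers (-0.05 without IPC_e), 0.02 over 8 lymphocyte markers (-0.01 without IPC_e), -0.00 over 11 endothelial markers and 0.07 over 3 red blood cell markers. All 3 mast cell markers lay below 0, with a median of -0.20, and none had an unadjusted p under 0.05. The mean log2 signal of the myeloid markers ran from 8.60 to 8.89 in IPC and from 8.52 to 8.90 in APC.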
